A study of Drosophila melanogaster with 2 samples.

Results

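Binding of CG17802 was examined at the genes for proteins of the mitochondrial ribosome. The members were the annotated protein-coding genes whose symbol begins with mRpL or mRpS and a number. They were 73 of the 13945 protein-coding genes on the X, 2L, 2R, 3L, 3R and 4 chromosome arms, 47 for the large subunit and 26 for the small subunit. Genes of the mitochondrial ribosome that carry other names, such as tko and bonsai, fall outside this symbol pattern. The ChIP-seq libraries came from whole Drosophila melanogaster embryos, aged 0 to 14 h and of pooled sexes, of a transgenic line that stably expresses CG17802 with GFP fused to its C terminus. There was 1 group of 2 biological replicates from the same fly line and no second condition, so binding was compared between genes and not between treatments. The labels do not say which promoter drives the fusion, and whole embryos mix all cell types. CG17802 is the zinc finger protein of the ZAD family encoded by Nnk (FBgn0038549).

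Mitochondria keep a small genome of their own, which encodes core subunits of the respiratory chain, and they translate it on a ribosome separate from that of the cytosol. The proteins of the mitochondrial ribosome are all encoded in the nucleus, made in the cytosol and imported, so its assembly depends on many nuclear genes spread over the chromosomes. Some of these proteins descend from those of the bacterial ribosome, and others are found only in mitochondria.

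The peak lists were the authors' own. Each replicate's list and the list from both replicates pooled held 30000 peaks, peaks together with background, and the optimal list thresholded for reproducibility (IDR) held 3535. These 3535 were the highest 3535 of the pooled list by signal, with signals of 109.8 to 22497 and a median of 186.5. Signal is the authors' value for a peak, its scale is not stated, and it was used to order peaks within a list. A gene was called bound where the summit of a thresholded peak, its point of highest signal, lay within 500 bp of any annotated transcription start site (TSS) of the gene. Read depth is unknown, so intervals of shares cover the counting of genes only. A description field of the labels speaks of input control libraries. The antibody field names CG17802, and the peaks were called against a control listed separately, so the libraries were treated as ChIP.

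The promoters of 6 members are printed here, 5 with a DRE or an E-box, as defined below, and that of mRpS5 with neither. Each runs from 250 bp before the gene start to 50 bp from it, on the coding strand, in dm6 coordinates, so that base 251 is the start. Capitals mark TATCGATA, the DNA replication-related element (DRE) bound by the factor DREF, and CAGCTG, an E-box, the kind of site bound by basic helix-loop-helix factors. mRpL16 and mRpS5 had the strongest peaks, mRpS23 and mRpL4 are bound genes with a DRE, and mRpS24 and mRpL17 are unbound genes with an E-box. The sequences are from the RefSeq copy of the release 6 genome.
mRpL16 (chrX:1890006-1890305, + strand): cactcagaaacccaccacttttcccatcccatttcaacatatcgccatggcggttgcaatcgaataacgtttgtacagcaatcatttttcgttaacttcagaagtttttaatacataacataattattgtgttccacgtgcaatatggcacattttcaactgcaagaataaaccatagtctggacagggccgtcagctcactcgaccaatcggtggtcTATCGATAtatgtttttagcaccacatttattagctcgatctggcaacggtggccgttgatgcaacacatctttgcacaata
mRpS5 (chr3L:24536986-24537285, + strand): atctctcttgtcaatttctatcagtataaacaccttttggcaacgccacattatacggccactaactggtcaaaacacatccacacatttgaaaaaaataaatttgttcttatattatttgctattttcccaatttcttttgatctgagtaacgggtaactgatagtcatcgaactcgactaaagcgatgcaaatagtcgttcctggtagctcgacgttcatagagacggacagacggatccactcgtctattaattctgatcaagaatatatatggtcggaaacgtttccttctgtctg
mRpS23 (chr2L:13835023-13835322, - strand): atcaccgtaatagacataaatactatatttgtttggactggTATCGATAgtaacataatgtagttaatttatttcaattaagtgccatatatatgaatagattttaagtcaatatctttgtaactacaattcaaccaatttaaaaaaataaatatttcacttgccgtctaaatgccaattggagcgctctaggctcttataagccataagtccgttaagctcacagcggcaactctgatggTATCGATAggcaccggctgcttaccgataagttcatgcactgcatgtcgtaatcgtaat
mRpL4 (chr2L:16329083-16329382, - strand): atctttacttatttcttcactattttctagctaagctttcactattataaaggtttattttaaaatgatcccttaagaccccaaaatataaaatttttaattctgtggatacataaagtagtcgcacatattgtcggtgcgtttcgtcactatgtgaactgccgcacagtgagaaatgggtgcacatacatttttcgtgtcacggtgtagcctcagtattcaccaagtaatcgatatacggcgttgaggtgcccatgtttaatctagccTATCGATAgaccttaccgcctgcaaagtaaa
mRpS24 (chr3R:24163496-24163795, - strand): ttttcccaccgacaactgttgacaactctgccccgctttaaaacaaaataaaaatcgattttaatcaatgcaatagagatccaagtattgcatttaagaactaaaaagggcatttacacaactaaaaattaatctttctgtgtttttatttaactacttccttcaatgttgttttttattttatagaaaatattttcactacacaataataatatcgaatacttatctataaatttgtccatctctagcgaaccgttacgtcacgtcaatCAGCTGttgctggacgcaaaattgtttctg
mRpL17 (chr3L:264529-264828, + strand): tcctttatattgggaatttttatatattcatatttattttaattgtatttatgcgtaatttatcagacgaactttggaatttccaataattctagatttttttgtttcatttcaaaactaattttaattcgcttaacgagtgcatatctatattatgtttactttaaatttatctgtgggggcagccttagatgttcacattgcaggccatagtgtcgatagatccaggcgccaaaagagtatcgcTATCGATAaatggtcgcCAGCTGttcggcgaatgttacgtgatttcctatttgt

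A thresholded summit lay near a start of 20 of the 73 members (27.4%, Wilson 95% interval 18.5 to 38.6%), against 16.9% of all protein-coding genes. The bound members were 12 of 47 genes of the large subunit (25.5%, 15.3 to 39.5%) and 8 of 26 of the small subunit (30.8%, 16.5 to 49.99%), and these intervals overlap. The median signal of the bound members was 249.6, against 212.6 over all 2352 bound protein-coding genes. This order turned when chromosome 4 and the centromere-proximal segments were left out, which removes 1 bound member, mRpS5: the medians were then 195.1 for the members and 200.7 for all bound protein-coding genes. Peaks among the 500 highest of the set marked 6 members (8.22% of the 73), against 3.27% of protein-coding genes. The members' signals spanned 74.1-fold, with 5 genes above 1000, 5 between 200 and 1000 and 10 below 200. No test was made on these counts, since the members were chosen with earlier results of these data known and genes are not samples.

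**Figure D1:**
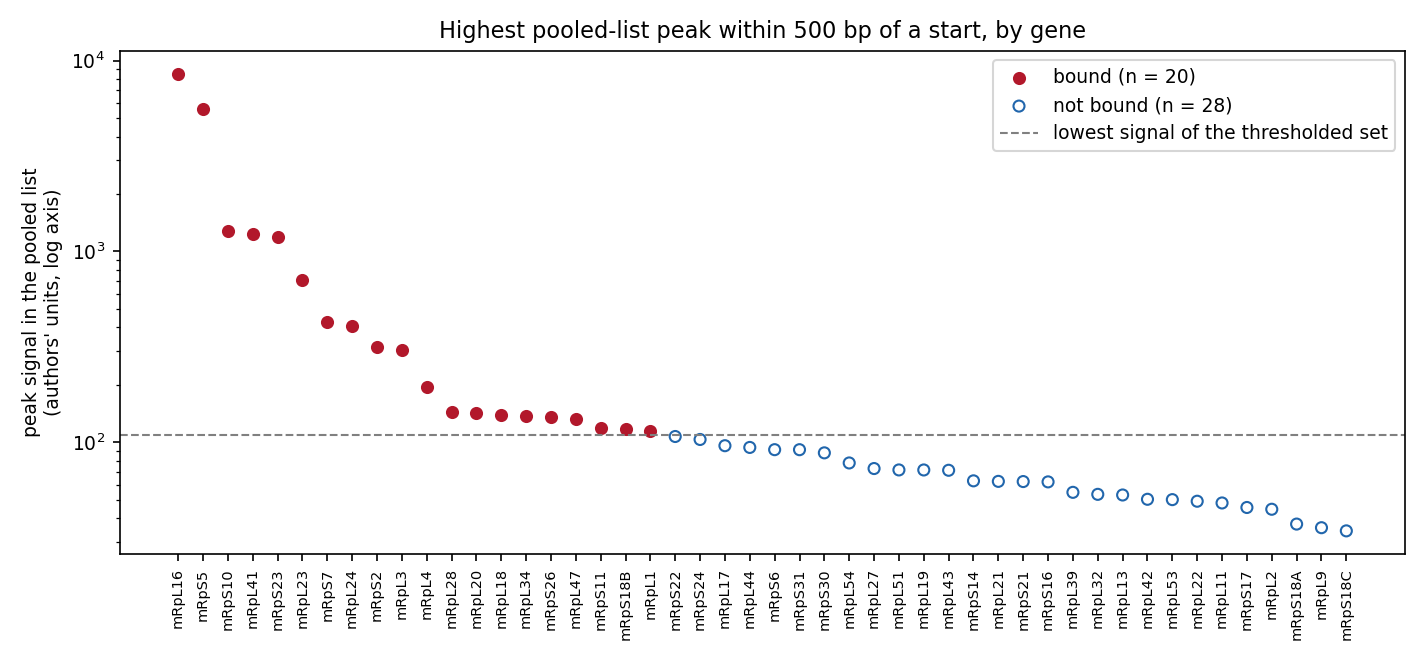
Signal of the highest pooled-list peak within 500 bp of a start for the 48 members that have one, in the authors' units on a log axis, with genes ordered by signal. Filled points are the 20 bound members, open points the 28 that are not bound, and the dashed line is the lowest signal of the thresholded set (109.8); mRpL16 and mRpS5 stand at 8540 and 5541 and no other gene above 1281.

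Of the large subunit, mRpL16 had the strongest peak. Its bacterial counterpart L16 helps to place tRNA at the catalytic centre. The peak (chrX:1889819-1890502) had a signal of 8540 and rank 18 in the thresholded set, and in the replicates' own lists its ranks were 26 and 14, with signals of 2145 and 6428 for replicates 1 and 2. Its summit was intergenic, 81 bp before the mRpL16 start (FBgn0023519) and 225 bp from a start of trr, a histone H3 methyltransferase gene on the opposite strand. The DRE printed above begins 32 bp before the gene start, and its centre was 53 bp from the summit.

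Of the small subunit, mRpS5 had the strongest peak. S5 in bacteria lines the path of the mRNA into the ribosome and bears on the accuracy of decoding. The peak (chr3L:24536725-24537562) had a signal of 5541 and rank 33, with ranks of 31 and 36 in replicates 1 and 2 and signals of 1869 and 3685. It lay in an intron of mRpS5 (FBgn0287187), 43 bp before the nearer of its 2 starts and 84 bp after the 5' end of the gene. No other gene had a start within 500 bp. The summit lies beyond the end of the printed window, and the promoter held neither the DRE nor the E-box. Among the 73 members, mRpS5 alone lies in a centromere-proximal segment, here 3L beyond 23 Mb, where 108 of 243 protein-coding genes were bound (44.4%) with a median signal of 1914.

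Next came 3 genes with signals above 1000. mRpS10, whose bacterial counterpart sits in the head of the small subunit, had a peak of 1281 (rank 173; replicate signals 344.5 and 949.7, ranks 189 and 166). Its summit fell 126 bp before the mRpS10 start and 131 bp before that of Art3, an arginine methyltransferase gene, so the peak sat midway between them. mRpL41, which belongs to the proteins without a bacterial counterpart, had 1231 (rank 183; replicate signals 268.4 and 972.9, ranks 229 and 163), 136 bp before its start. mRpS23, another mitochondrial protein of the small subunit, had 1197 (rank 187; replicate signals 365.4 and 835.2, ranks 185 and 189). That summit was 394 bp before mRpS23 and only 98 bp before CenG1A, a regulator of ARF GTPases. All 3 lay within the highest 229 peaks of each replicate, though the set was thresholded for reproducibility, so this likeness is only a description.

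Between signals of 200 and 1000 stood 5 further genes. mRpL23, whose bacterial counterpart lies at the exit of the peptide tunnel, had 707.2 (rank 310; replicate ranks 369 and 301), with the summit in its own 5' UTR, 61 bp after a start. mRpS7, whose bacterial counterpart organises the head of the small subunit, had 428.4 (rank 568; replicate ranks 968 and 486) at a summit 202 bp before its start and 198 bp before that of Cdk1, the mitotic kinase. mRpL24, an early assembly protein in bacteria, had 404.8 (rank 607; replicate ranks 1215 and 536). These 3 peaks ranked no lower than 1215 in either replicate. mRpS2 had 314.0 (rank 879; replicate ranks 1623 and 763), with Mon1, a gene of vesicle traffic, only 17 bp from the summit. mRpL3, whose bacterial counterpart reaches the catalytic centre, had 304.1 (rank 930; replicate ranks 597 and 1186) at 442 bp, the longest distance among the bound members, and a weaker peak of 127.3 at 243 bp. For mRpL3 the nearer gene at the stronger peak was Graf, at 73 bp.

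The remaining 10 bound members had signals of 115.2 to 195.1, close to the lower end of the set. mRpL4, whose bacterial counterpart lines the peptide tunnel, had 195.1 (rank 1676; replicate ranks 890 and 2231) at 61 bp and was, with mRpS5, 1 of 2 members with no other gene's start within 500 bp. The strongest peak of the whole set, with a signal of 22497, had its summit 3.36 kb away. mRpL28 had 144.8, at 402 bp, and a second peak of 113.2 at 196 bp. mRpL20, mRpL18, mRpL34 and mRpS26 had 141.7, 138.8, 136.7 and 136.0. mRpL47, mRpS11, mRpS18B and mRpL1 had 133.2, 118.3, 117.4 and 115.2. In bacteria, L18 binds the 5S RNA, S11 belongs to the platform of the small subunit and L1 forms the stalk at which used tRNA leaves. The bound member of lowest rank was mRpL1 at 3309, and the unbound member of highest rank was mRpS22 at 3650 of the pooled list (signal 107.3), so no gap in signal separates the call. By distance, mRpS25 and mRpL27 fell just outside, with thresholded summits at 578 and 739 bp.

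The replicates ranked the strong peaks alike and differed on some of the weak ones. The bound members come from a set thresholded for reproducibility, so likeness between replicates is only a description here. All 20 bound members had a peak within 500 bp of a start in both replicates' lists, 16 of them within the top 3535 of replicate 1, 18 within that of replicate 2 and 14 in both (70%). Over all bound protein-coding genes the share in both was 77.0%. For the members the median shift of the summit from the thresholded one was 31 bp in replicate 1 and 9.5 bp in replicate 2. mRpL47 had rank 2169 in replicate 2 (signal 119.5) but 28299 in replicate 1 (signal 15.1, near the lowest of that list). mRpL1 showed the opposite, with rank 1398 in replicate 1 and 6436 in replicate 2, and mRpS11 had ranks 1842 and 4920. Outside the top 3535 were mRpL18, mRpL20, mRpL47 and mRpS18B in replicate 1, and mRpL1 and mRpS11 in replicate 2, so these 6 calls depend on which library is weighed.

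**Figure D2:**
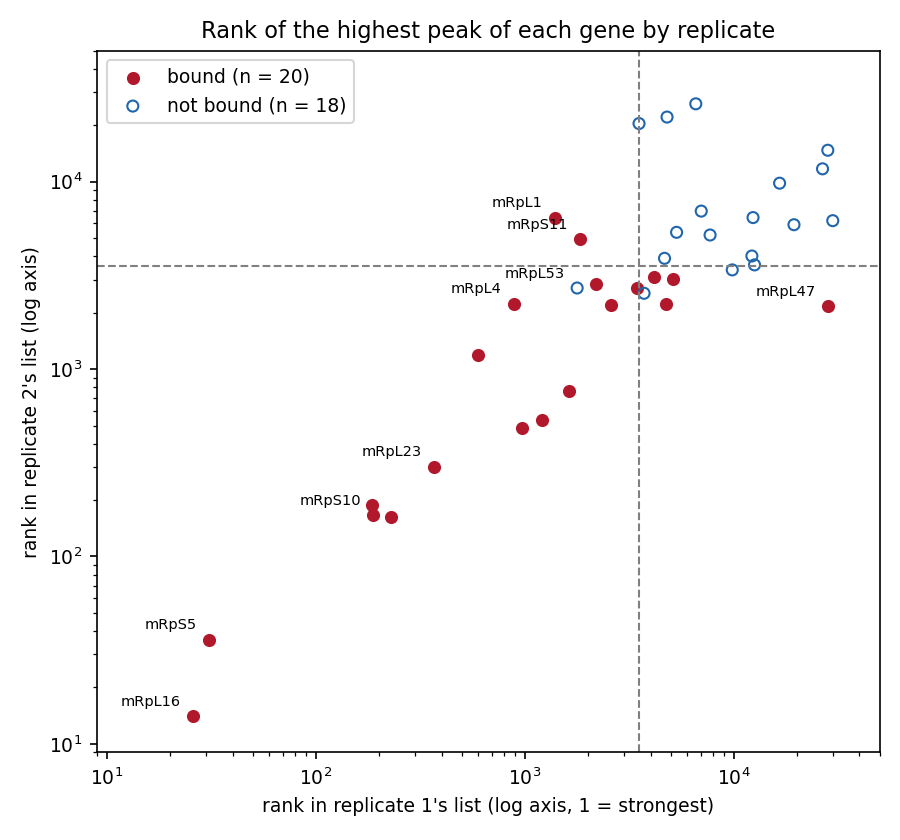
Rank of the highest peak within 500 bp of a start in replicate 1's list (x axis) and replicate 2's list (y axis), both log axes on which 1 is the strongest peak, for the 38 members with a peak in both lists. Filled points are bound members, open points members that are not bound, and dashed lines mark rank 3535; the strong peaks such as mRpL16, mRpS5 and mRpS10 have close ranks in both replicates, while mRpL47 and mRpL1 lie far apart.

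Of the 53 members that were not bound, 28 had a pooled-list peak within 500 bp of a start and 25 had none. With the bound ones, 48 of 73 members (65.8%) had a pooled-list peak, against 47% of protein-coding genes. The pooled list includes background. Among members with an upstream start on the opposite strand within 1000 bp, 75.9% had such a peak, against 64.3% of all such genes. Among members without such a start the share was 26.7%, against 35.6% of all such genes. The unbound ones had signals of 34.4 to 107.3 with a median of 62.4, and ranks of 3650 to 28834. After mRpS22 came mRpS24 (signal 103.5), mRpL17 (96.0), mRpL44 (94.1), mRpS6 (91.6), mRpS31 (91.5), mRpS30 (88.1) and mRpL54 (77.999). No list held a peak for 17 members, among them mRpL10, which carries the stalk that recruits translation factors, mRpL14, and mRpS29, a GTP-binding protein of the small subunit. mRpL12, the stalk protein itself, had no pooled-list peak and rank 25624 in replicate 1.

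mRpL53 differed from the other unbound members. Its highest peak ranked 1782 in replicate 1 (signal 53.6) and 2709 in replicate 2 (signal 100.9), within the top 3535 of each, yet the pooled-list peak ranked 12253 (signal 50.1). The replicate summits lay 44 bp before and 221 bp after the mRpL53 start, 265 bp apart, so each library placed its peak on another side of the start. mRpL37 had a peak of rank 2462 in replicate 2 (signal 109.0), and neither replicate 1 nor the pooled list held one there.

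Most bound members share their peak with a neighbour. The summit was intergenic for 15 of 20, in a 5' UTR for 3 (mRpL23, mRpS11 and, for mRpL18, that of Taz), in an intron for mRpS5 and in a coding exon of CG14043 for mRpL28. It lay upstream of the member's nearest start in 18 of 20, at a median distance of 131 bp (8 to 442 bp), against 121 bp over all bound protein-coding genes. A start of another protein-coding gene also lay within 500 bp in 17 of 20. The member's start was the nearest in 10 of 20 (50%), against 71.5% over bound protein-coding genes. In 13 of 20 the summit fell between the member's start and that of a gene transcribed the other way, both within 500 bp of it. For mRpL41 and mRpL4 the summit also lay between such starts, but the other start was 762 and 793 bp from the member's. Peaks between such starts cannot be assigned to the mitochondrial gene alone.

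**Figure D3:**
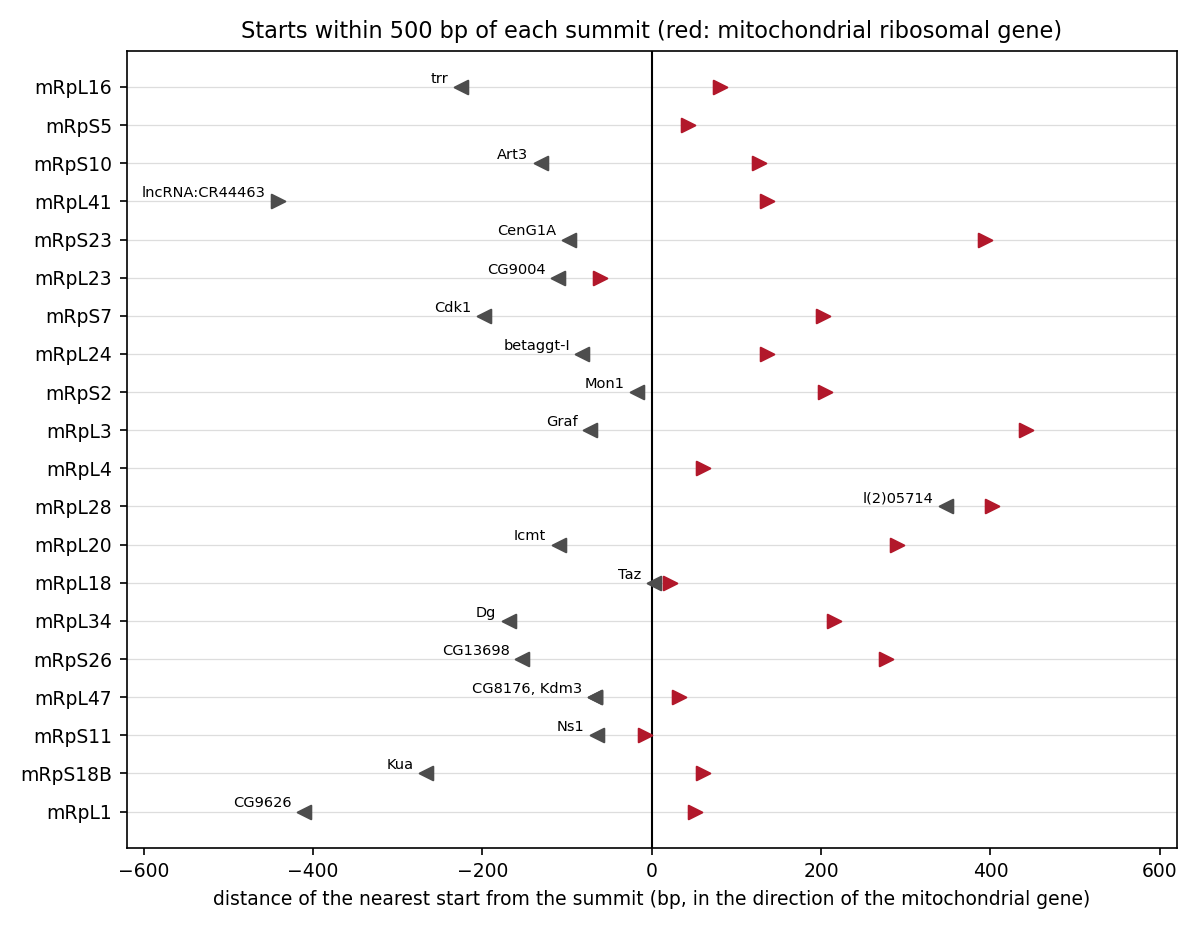
Position of annotated starts within 500 bp of the summit for the 20 bound members, ordered by signal from the top, in bp along the direction of the member's transcription (x axis), with the summit at 0 (line). Red arrowheads are the nearest starts of the members and grey ones those of the named neighbours, each pointing in its direction of transcription; in 13 of 20 rows the summit lies between diverging arrowheads.

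The neighbours had varied roles. Besides trr, Art3, CenG1A, Cdk1, Mon1 and Graf, they included betaggt-I (82 bp from the mRpL24 summit) and Icmt (110 bp from that of mRpL20), both enzymes of protein prenylation and its processing. Taz, the remodeller of the mitochondrial lipid cardiolipin, was 2 bp from the mRpL18 summit. Dg, which encodes dystroglycan, was 169 bp from that of mRpL34. Kdm3, a histone demethylase gene, and CG8176 were each 67 bp from that of mRpL47, and Ns1, which encodes a nucleostemin, was 65 bp from that of mRpS11. Among the others were CG9004, CG13698, Kua, CG9626 and lncRNA:CR44463.

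Divergent promoters are common among the members. A start on the opposite strand lay upstream within 1000 bp for 58 of 73 members (79.5%), against 39.6% of protein-coding genes. Of the 20 bound members 19 had such a neighbour (95%), and of the 53 unbound ones 39 did (73.6%). Among genes with a divergent neighbour, 32.8% of members (19 of 58, Wilson 95% interval 22.1 to 45.6%) were bound, against 28.7% of all such protein-coding genes (1587 of 5526). Among genes without one, 1 of 15 members was bound (6.67%, 1.19 to 29.8%), namely mRpS5, against 9.09% of all such genes. Within each kind of promoter the interval of the members held the share of all genes. When each summit counted only for the gene of its nearest start, 11 of 73 members were bound (15.1%), against 12.3% of protein-coding genes.

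**Figure D4:**
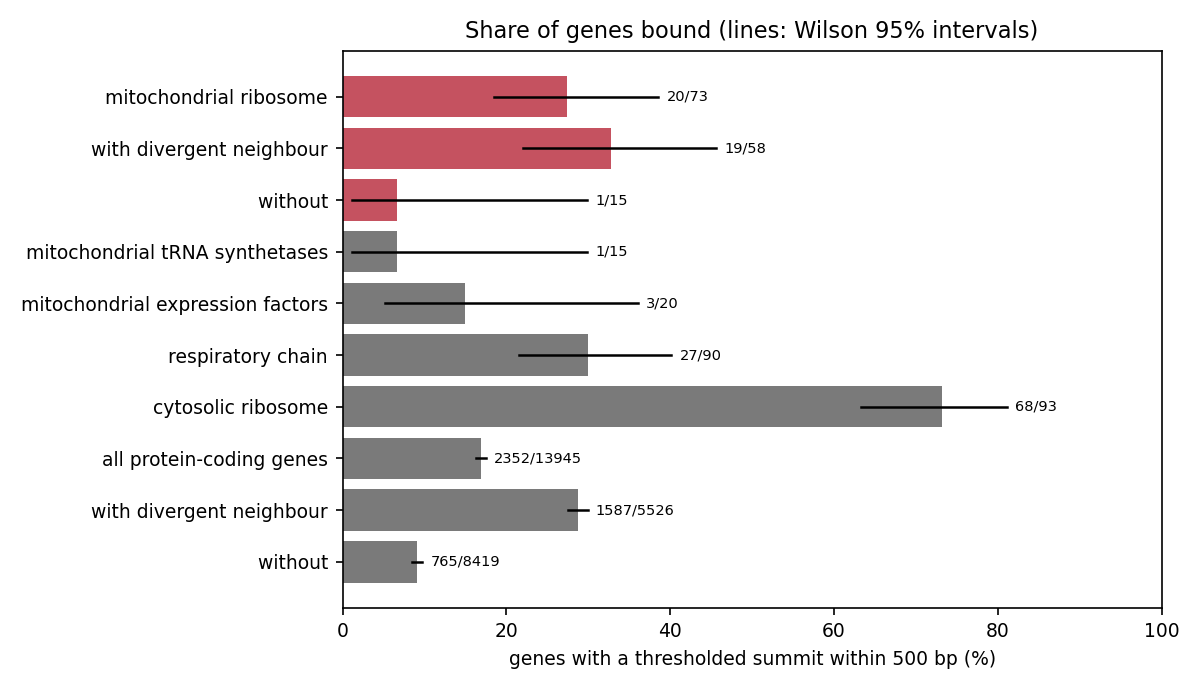
Share of genes with a thresholded summit within 500 bp of a start (x axis, %), for the mitochondrial ribosomal protein genes and their split by divergent neighbour (red), and for comparison lists and all protein-coding genes (grey); bars start at 0, lines are Wilson 95% intervals and labels give bound genes over all genes. Members with a divergent neighbour (32.8%) lie near all genes with one (28.7%).

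The bound members were uneven along the chromosomes and along the numbering of the proteins. On 2L, 7 of 12 members were bound (58.3%, Wilson 95% interval 32.0 to 80.7%), against 16.6% of protein-coding genes there. Of these 7, only mRpL4 and mRpS18B had the start nearest to their summit. At the strongest peaks of mRpS23, mRpS7, mRpL24, mRpS2 and mRpL28 another gene's start was nearer. 2L was picked out here by its high share, and the difference between arms was not tested. The other arms were nearer their background. The members' counts were 3 of 12 on 2R (25%, against 15.4% of protein-coding genes there), 4 of 17 on 3L (23.5%, against 17.2%), 4 of 21 on 3R (19.0%, against 17.7%) and 2 of 11 on X (18.2%, against 15.6%). On 2L, the summits of mRpS2, mRpL24 and mRpL28 lay close together, with 94.9 kb between the first pair and 28.1 kb between the second. Members numbered within the range used for bacterial proteins (L1 to L36 and S1 to S21) were bound in 16 of 42 cases (38.1%, 25 to 53.2%). Members with higher numbers, mostly proteins added in mitochondria, were bound in 4 of 31 (12.9%, 5.13 to 28.9%), and these were mRpL41, mRpS23, mRpS26 and mRpL47, the last of which does have a bacterial counterpart. Divergent neighbours were about as frequent in both, 33 of 42 (78.6%) and 25 of 31 (80.6%). Among members with such a neighbour, 15 of 33 and 4 of 25 were bound, against 28.7% of all protein-coding genes with one. Of all protein-coding genes 16.9% were bound, which lies below the interval of the bacterial range and within that of the higher numbers. A split of this kind was looked at after earlier results were known, and the intervals of the classes overlap. The difference between the classes was not tested.

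The E-box was frequent in the promoters of the mitochondrial ribosomal genes, whether bound or not. Promoter windows of 300 bp were searched on both strands for TATCGATA, CAGCTG and GGTCACAC (Motif 1, bound by M1BP), of which the first 2 read the same on both strands. CAGCTG occurred in 40 of 73 members (54.8%, Wilson 95% interval 43.4 to 65.7%), against 17.7% of protein-coding genes and 21.4% of those with a divergent neighbour. It was in 8 of 20 bound members (40%) and in 32 of 53 unbound ones (60.4%), and in 21.5% of all bound protein-coding genes. The large subunit held it in 27 of 47 genes and the small subunit in 13 of 26. Of the 45 matches, 36 began within 50 bp of the gene start, and 5 genes had 2 matches, among them mRpS6 and mRpS2. The window ends 50 bp after the start, so any match after the start counts among the 36. In 22 of the 40 members a match began after the start. In mRpL17 the E-box follows a DRE closely, as printed above.

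The DRE was in 15 of 73 members (20.5%, Wilson 95% interval 12.9 to 31.2%), against 9.36% of protein-coding genes and 15.2% of those with a divergent neighbour. The bound members held it in 6 of 20 cases (30%, 14.5 to 51.9%), namely mRpL16, mRpS23, mRpL3, mRpL4, mRpL20 and mRpS18B, and the unbound ones in 9 of 53 (17.0%, 9.20 to 29.2%). Over all bound protein-coding genes the share with the DRE was 15.9%. Of the 16 matches, 13 began in the 100 bp before the gene start. The distance from its centre to the summit was 53 bp in mRpL16, 61 bp in mRpS18B and 84 bp in mRpL4, but 283 bp in mRpL20, 443 bp in mRpL3, and 189 and 389 bp for the 2 copies of mRpS23. Motif 1 was in 0 of 20 bound members, which allows a share of up to 15%, and in 8 of 53 unbound ones (15.1%). It was in 7.7% of protein-coding genes, 12.1% of all bound ones and 12.5% of those with a divergent neighbour. Around the summits themselves (100 bp on each side), the E-box was in 5 of 20 member windows (25%), against 9.59% of all 3535, and the DRE in 3 of 20 (15%), against 6.48%. The member windows all lie near starts, whereas the 3535 include peaks far from promoters, so the sets are unlike. ATCGAT, the core of the DRE, was in 27 of 73 members (37.0%, 26.8 to 48.5%), against 23.3% of protein-coding genes and 32.8% of those with a divergent neighbour. CGATA, also part of the DRE, was in 43 members (58.9%), against 47.4% of protein-coding genes and 58.1% of those with a divergent neighbour. TATAAA was in 34 members (46.6%), against 45.8% of protein-coding genes. These matches are letters in a window and do not show which factor binds there.

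**Figure D5:**
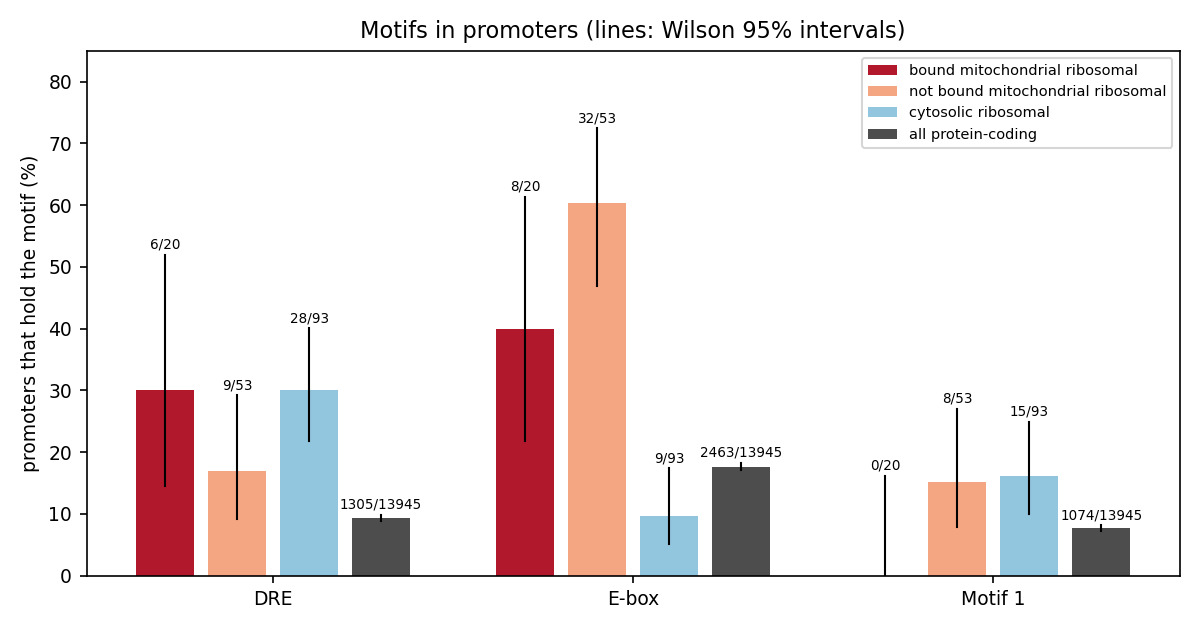
Share of promoters (250 bp before to 50 bp from the gene start, y axis, %) that hold the DRE, the E-box or Motif 1, for bound and unbound mitochondrial ribosomal protein genes, cytosolic ribosomal protein genes and all protein-coding genes; bars start at 0, lines are Wilson 95% intervals and labels give promoters with the motif over all promoters. The E-box is in 40% and 60.4% of the bound and unbound mitochondrial genes, against 9.68% of the cytosolic ribosomal genes.

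Other genes of the mitochondrial expression pathway were bound in shares whose intervals hold the 16.9% of all protein-coding genes. These intervals also hold the 27.4% of the mitochondrial ribosomal genes. Of 15 mitochondrial aminoacyl-tRNA synthetases, which charge tRNAs for this ribosome, 1 was bound (6.67%, Wilson 95% interval 1.19 to 29.8%), IleRS-m, but with a signal of 7667 (rank 22). Of 20 factors for mitochondrial translation and transcription, 3 were bound (15%, 5.24 to 36.04%). They were GatC (signal 158.3) and GatA (121.7), subunits of the amidase that completes glutaminyl-tRNA in mitochondria, and bsf (142.5), an RNA-binding protein of mitochondrial transcripts. For GatA and bsf another gene's start was nearer to the summit. The elongation factor genes mEFTu1, mEFTu2, mEFTs and mEFG1, the transcription factor TFAM and the polymerase gene PolrMT were not bound. The E-box was in 7 of the 15 synthetase promoters (46.7%) and 12 of the 20 factor promoters (60%), against 17.7% of protein-coding genes. The DRE was in 1 of 15 (6.67%) and 8 of 20 (40%, 21.9 to 61.3%), against 9.36% of protein-coding genes.

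The products of this ribosome join nuclear subunits of the respiratory chain, whose genes were bound in 27 of 90 cases (30%, Wilson 95% interval 21.5 to 40.1%). This interval overlaps that of the mitochondrial ribosome, and the share of all protein-coding genes was 16.9%. For many of the bound respiratory chain genes another gene's start was nearer to the summit. Cytosolic ribosomal protein genes were bound in 68 of 93 cases (73.1%, 63.3 to 81.1%), above the interval of the mitochondrial ribosome (18.5 to 38.6%). Their median summit distance was 34.5 bp, against 131 bp for the bound mitochondrial ribosomal genes. The E-box was in 9 of 93 cytosolic ribosomal promoters (9.68%) and in 21 of 90 respiratory chain promoters (23.3%), against 17.7% of protein-coding genes. The DRE was in 28 of 93 (30.1%) and 10 of 90 (11.1%), against 9.36% of protein-coding genes.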

How the data were processed

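ChIP-seq peak lists of CG17802 from 2 replicates of whole embryos were used. Per the submitters' file descriptions, the authors called peaks on dm6 for each replicate and for both pooled, with a control, and thresholded them by IDR. The aligner, caller and IDR cut-off were not given in the sources used here. Of the deposited columns, signal, in authors' units, and the summit offset, one of the other columns, were used as the authors gave them. The deposited −log10 q-value was not used for any result. Where an offset left its interval, which happened for 1 peak of replicate 1 and 4 of replicate 2, the midpoint stood in for the summit. Read counts were not used here.

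Genes and TSSs came from Ensembl release 115 (dm6 coordinates). All 73 members had the same start and end in RefSeq. The Y chromosome and transposable elements were left out. Centromere-proximal segments began at 22 Mb on 2L, at 23 Mb on 3L and at 22.5 Mb on X, and ended at 6 Mb on 2R and at 4.5 Mb on 3R. Motif windows were read from the RefSeq release 6 genome. Intervals are Wilson 95% intervals over genes, and the limit of a count of 0 uses 3 counts. Shares are descriptions without p-values. Gene assignment was checked on simulated peaks (Python 3.11.15, pandas 2.3.3).

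The members and lists were chosen with earlier results of these data known. Named genes were all bound members, the 8 unbound members with the highest pooled-list signal, neighbours at named peaks and bound genes of the mitochondrial pathway lists. mRpL10, mRpL12, mRpL14, mRpL27, mRpL37, mRpL53, mRpS16, mRpS25, mRpS29 and unbound pathway genes were named after their values were seen.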

Additional observations from a re-analysis of the deposited data

How the results depend on the processing

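The count of bound members (20) was 22 at a distance of 1000 bp, 20 with 1 TSS per gene, 20 with RefSeq TSSs, 21 by overlap of the peak interval with the 500 bp window, and 19 without chromosome 4 and the centromere-proximal segments. It was 13 at 200 bp, 11 with the nearest gene only, 11 with the 1767 peaks of higher signal and 6 with the 500 highest, as each of these admits fewer peaks or starts. With 1 replicate's highest 3535 peaks it was 18 to 23. Replicate 2 alone shared 18 genes, added mRpL17, mRpL37, mRpL53, mRpS22 and mRpS31 and lost mRpL1 and mRpS11. Replicate 1 alone shared 16, added mRpL53 and mRpS16 and lost mRpL18, mRpL20, mRpL47 and mRpS18B.

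The share of protein-coding genes bound (16.9%) was 12.3% at 200 bp, 19.2% at 1000 bp, 15.2% with 1 TSS per gene, 12.3% with the nearest gene only, 17.8% by interval overlap, 9.67% with the higher 1767 peaks, 3.27% with the highest 500, 16.1% without chromosome 4 and the segments, and 16.5 to 16.8% with 1 replicate. The members' share stayed above it in each of these settings, and was closest with the nearest gene only (15.1% against 12.3%). At 200 bp it was 17.8%. With genes split by divergent neighbour it was 32.8% against 28.7% with one, and 6.67% against 9.09% without. These differences were not tested. The bound members with a divergent neighbour were 19 of 20 within 1000 bp, 16 within 500 bp and 7 within 250 bp. The DRE was in 15 members and its core ATCGAT in 27. The median signal of bound members (249.6) was 213.6 at 1000 bp and 195.1 in each of 3 settings (200 bp, nearest gene only, and chromosome 4 and segments left out), the last against 200.7 for all bound protein-coding genes. No paired analysis was possible because there is 1 group and no contrast.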
